A study of Mus musculus with 8 samples.

Results

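This account describes 10 genes of liver lipoprotein biology: *Apob* and *Mttp*, the apolipoprotein genes *Apoa1*, *Apoa2*, *Apoa4*, *Apoe*, *Apoc1* and *Apoc4*, and the plasma lipid-modifying genes *Pltp* and *Lcat*. They were chosen by symbol from the authors' deposited table, and all 10 were found among its 27179 genes and had reads. The study sequenced RNA from the livers of adult male C57BL/6NHsd mice after a 6 h fast, 4 wild-type and 4 homozygous for the V227A substitution in PPARɑ, the fatty acid-sensing nuclear receptor. The V227A allele was made by base editing of zygotes and descends from 1 backcrossed heterozygous founder, so it is carried in all tissues and from before birth. The labels give no treatment beyond the fast in either genotype. The table gives each gene 1 average log2 CPM (read counts scaled to a library of 1000000 reads, on a log2 scale) over all 8 libraries and 0 columns of values per library. The levels below therefore hold for wild-type and V227A livers together, have no standard deviation, and cannot be split by genotype. The table's other numeric columns are the authors' own comparison of the genotypes and were not used here, so no difference between V227A and wild-type livers is given for any gene.

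Triglycerides leave the liver in VLDL, a particle built in the endoplasmic reticulum of hepatocytes around 1 molecule of apolipoprotein B, onto which the microsomal triglyceride transfer protein loads lipid. HDL starts from apolipoprotein A-I that takes up phospholipid and cholesterol at the cell surface, and it matures in plasma as lecithin cholesterol acyltransferase esterifies its cholesterol. Apolipoproteins E, A-IV and the C group move between particles in plasma, and direct their uptake and lipolysis. PPARɑ agonists are widely used to lower plasma triglycerides, and several genes of this system are known PPARɑ targets.

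Apolipoprotein transcripts were among the most abundant poly-A RNAs in these livers. *Apoe* had an average of 22795 CPM and was the second most abundant of the 18937 genes with reads. *Apoa1* was the seventh with 13300 CPM, *Apoa2* ranked 13 with 8016 CPM, and *Apoc1* ranked 15 with 7181 CPM. Together the 10 genes held 5.57% of the summed CPM of all genes with reads, and *Apoe*, *Apoa1*, *Apoa2* and *Apoc1* alone held 5.12%. *Mttp*, *Pltp* and *Lcat*, which encode the proteins that load or remodel particles rather than coat them, held 0.0772%. Of the 10 genes, 6 lay in the top 1% of genes by level and 9 in the top 10%. The exception was *Pltp*, with 89.4% of genes below it. The median of the 10 genes was 1827 CPM, against 3.72 CPM over all genes with reads. These CPM values count reads and so favour long transcripts. An order by CPM is therefore an order of read counts, and transcript levels of different genes are compared per kilobase. The lengths and overlaps used below come from the GENCODE annotation, whereas the table lists its genes by NCBI Gene ID. The gene models on which the reads were counted are not given in the sources used here, so levels per kilobase hold only as far as both annotations cover the same exons. How evenly reads covered each transcript is not known either.

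**Figure D1:**
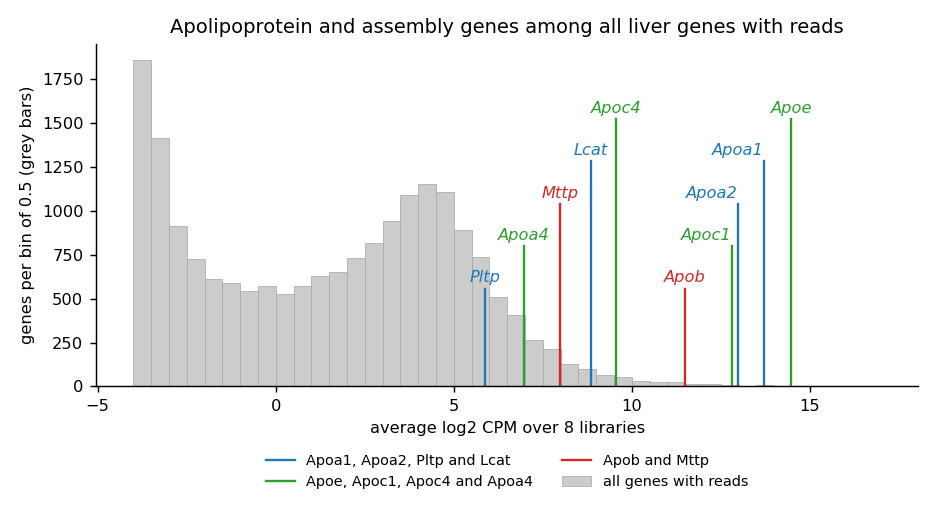
Average log2 CPM over the 8 libraries for the 10 genes (vertical lines, coloured by role) over the distribution of all 18937 genes with reads (grey bars, genes per bin of 0.5). *Pltp* sits furthest to the left at 5.89 and *Apoe* furthest to the right at 14.48, and the heights of the lines only separate the names.

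The depth behind these levels was high. The lowest value in the column was taken as that of a gene without reads. With a prior count of 2, the usual setting of the tool used by the authors, it gives a mean effective library size of 27473997 reads. This is the total of counted reads by which the tool scales, not the number of reads sequenced. How the 8 libraries differed in depth is not known. On this estimate *Apoe* had 626278 reads per library, *Apob* 79547 and *Pltp*, the lowest of the 10, 1624, against a median of 100.1 over all genes with reads. *Ppara* itself had an average of 331.7 CPM, with 98.1% of genes below it.

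*Apob* encodes the structural protein of VLDL, and its level depended strongly on the scale. It lies on the plus strand of chromosome 12 of GRCm38, from 7977648 to 8016835, and its longest coding transcript has 29 exons. By read count it had an average of 2895 CPM, below *Apoe*, *Apoa1*, *Apoa2* and *Apoc1* and above the other 5 genes. Its exons together span 13934 bases, the longest of the set, and per kilobase it had 207.8 CPM, below *Lcat* and *Apoc4* too. *Mttp*, on the minus strand of chromosome 3 from 138089854 to 138144968, had an average of 251.7 CPM and 40.6 CPM per kilobase. Per kilobase *Apob* was 5.12-fold above *Mttp*. With coding length (2727 bases for *Mttp*) in place of exon length (6206 bases) the same ratio was 2.32. *P4hb*, which encodes protein disulfide isomerase, the partner subunit of the *Mttp* protein, had 524.7 CPM per kilobase.

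Liver *Apob* mRNA can carry a base change made after transcription. In mouse liver the cytidine deaminase encoded by *Apobec1* converts the first base of a glutamine codon, which turns it into a stop codon and yields the short protein apoB48 in place of apoB100. The site is shown because it decides which of the 2 proteins a read-counted *Apob* transcript can make. The transcript Apob-202 of GENCODE vM21 holds 1 in-frame CAA that is followed by any 2 bases and TGATCAG, the start of the recognition sequence of the editing complex. It is codon 2179 of 4505, in exon 26 of 29 (chromosome 12, 8005736 to 8013202). The plus strand at chr12:8008033-8008077 of GRCm38 reads as follows, with the edited codon (8008054 to 8008056) in capitals.
Apob site: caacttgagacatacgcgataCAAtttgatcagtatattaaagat
Exon 26 alone is 7467 bases long, and 48.3% of the coding length lies before the codon. Reads on either side of the codon would thus be counted on *Apob*, but where they fell is not known. Editing was not measured here. *Apobec1* had an average of 9.66 CPM, and *A1cf*, which encodes its RNA-binding partner, had 31.0 CPM.

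*Apoa1* and *Apoa2* encode the main structural proteins of HDL. *Apoa1* lies on the plus strand of chromosome 9 (46228580 to 46230466) and had 10760 CPM per kilobase. *Apoa2* lies on the plus strand of chromosome 1 (171225054 to 171226379). Its exons span 537 bases, the shortest of the set, and it had 14927 CPM per kilobase. *Apoa2* thus passed *Apoa1* per kilobase although it had fewer reads. By the union of exons it was second only to *Alb*, which encodes albumin (29709 CPM per kilobase), among the 17238 genes with reads and a known length. By longest transcript *Apoe* was above *Apoa2*, and by coding length *Apoc1* was. *Apoa1* was 0.721-fold *Apoa2* by the union of exons, and between 0.641-fold and 0.830-fold under the other definitions of length.

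The enzymes and transfer proteins of HDL were far below its structural genes. *Lcat*, which encodes the enzyme that esterifies plasma cholesterol, lies on the minus strand of chromosome 8 (105939551 to 105943382). It had an average of 462.8 CPM and 344.9 CPM per kilobase, so *Apoa1* was 31.2-fold above it. *Pltp*, which encodes the protein that moves phospholipid between particles, lies on the minus strand of chromosome 2 (164839518 to 164857711). It was the lowest of the 10 on either scale, with 59.2 CPM and 23.1 CPM per kilobase. *Lcat* was 14.9-fold above *Pltp* per kilobase, and 8.80-fold by coding length. Of the annotated exonic bases of *Pltp*, 19.3% (495 bases) overlap *Ctsa* on the opposite strand, which had 190.3 CPM. The libraries were stranded, but the strand setting of the counting is not given in the sources used here, so reads in these bases could not be assigned to 1 gene with certainty.

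*Apoe*, *Apoc1* and *Apoc4* encode exchangeable proteins of VLDL and HDL and sit side by side on the minus strand of chromosome 7. *Apoe* (19696109 to 19699188) encodes the ligand for hepatic uptake of remnant particles and had 10662 CPM per kilobase. *Apoc1* (19689481 to 19692660) encodes a small protein that restrains lipolysis and particle uptake. It had 9651 CPM per kilobase, so *Apoe* was 1.105-fold above it. By coding length the order turned, and *Apoe* was 0.898-fold *Apoc1*. *Apoc4* (19678083 to 19681479) had an average of 758.3 CPM and 298.9 CPM per kilobase, and *Apoc1* was 32.3-fold above it. With coding length, which is 372 bases for *Apoc4* against 2537 exonic bases, that ratio was 13.3. Coding bases made up 69.1% of the longest coding transcript of *Apoc4*, so that transcript covers a minor part of its exonic bases.

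*Apoa4* encodes a protein of intestinal chylomicrons that mouse liver also makes. It lies on the plus strand of chromosome 9 (46240696 to 46243459) and had an average of 124.6 CPM and 68.6 CPM per kilobase. *Apoa1*, its neighbour, was 156.7-fold above it per kilobase. This value is less certain than the others, because 69.8% of the exonic bases of *Apoa4* are also covered by Gm47528 and Gm10680, annotated on the opposite strand and not matched in the table. Over the exonic bases of *Apoa4* that no other gene covers, its level would be 226.9 CPM per kilobase and the ratio 47.4, if no read in the shared bases had been counted. Whether the authors' annotation held these overlapping genes is not known.

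Per kilobase the 10 genes fell into a high and a low group. *Apoa2*, *Apoa1*, *Apoe* and *Apoc1* lay within a 1.55-fold range of each other. By the union of exons the next gene, *Lcat*, was 28.0-fold below *Apoc1*. After *Lcat* came *Apoc4*, *Apob*, *Apoa4*, *Mttp* and *Pltp*. The same 4 genes were the highest under all 4 definitions of length, and *Mttp* and *Pltp* were the lowest of the 10 under each. Within the high group the order changed with the definition: *Apoe* came first by longest transcript and *Apoc1* by coding length. The step from the fourth to the fifth gene was smallest by coding length (8.24-fold), where *Apoc4* was next after the high group. By longest transcript too *Apoc4* lay above *Lcat*. Per kilobase *Apoe* was 51.3-fold and *Apoa1* 51.8-fold above *Apob* by union of exons, and 114.0-fold and 78.4-fold by coding length. Without a spread between mice, neighbours in this order that differ by less than the definitions of length move them, such as *Apoa1* and *Apoe* (1.01-fold), cannot be ranked.

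**Figure D2:**
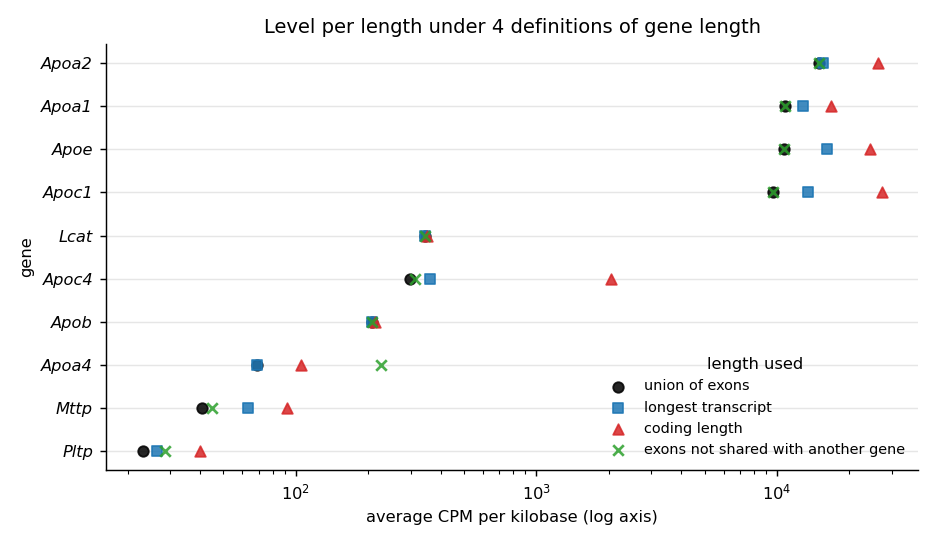
Average CPM per kilobase (log axis) for each of the 10 genes, with the gene length taken in 4 ways (symbols). *Apoa2*, *Apoa1*, *Apoe* and *Apoc1* lie between 9651 and 27199 under all 4 definitions, *Apoc4* rises to 2038 by coding length, and *Apoa4* rises to 226.9 when exonic bases shared with other genes are left out.

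Among the 17238 genes with reads and a known length, 4 of the 10 highest by CPM per kilobase were apolipoprotein genes. Length here is the union of exons, since the other definitions were applied to the 10 described genes only. The others, from the highest down, were *Alb*, *Mup3* (a major urinary protein), the mitochondrial *CYTB*, *Fabp1* (liver fatty acid-binding protein), the mitochondrial *COX1* and *Serpina3k*. By CPM, without length, the 10 highest were *Alb*, *Apoe*, *Trf* (transferrin), *Rn45s* (ribosomal RNA precursor), *COX1*, *Serpina3k*, *Apoa1*, *CYTB*, *Mup3* and *Cyp2e1*. Of all CPM per kilobase the 10 genes held 10.8%, and 97.9% of that came from *Apoa2*, *Apoa1*, *Apoe* and *Apoc1*.

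Genes in 1 genomic cluster had very different levels. The *Apoe* cluster spans 27610 bases of chromosome 7 (19671579 to 19699188) and holds *Apoe*, *Apoc1*, *Apoc4* and *Apoc2*, all on the minus strand. *Apoc2*, which encodes the activator of lipoprotein lipase, had 253.5 CPM per kilobase and starts 141 bases downstream of *Apoc4*. Per kilobase of exon the levels fell in the order *Apoe*, *Apoc1*, *Apoc4*, *Apoc2*, and *Apoe* was 42.1-fold above *Apoc2*. By coding length *Apoe* and *Apoc1* changed places. Other definitions of length were not applied to *Apoc2*, so its place after *Apoc4* (298.9 CPM per kilobase) holds for this length only. The *Apoa1* cluster spans 43340 bases of chromosome 9 (46228580 to 46271919). Its *Apoc3*, which encodes an inhibitor of triglyceride clearance and is transcribed towards *Apoa1*, had 1645 CPM per kilobase. *Apoa5*, which encodes a protein that promotes triglyceride clearance, had 662.0 CPM per kilobase. *Apoa4* was the lowest gene of its cluster, 5059 bases from *Apoc3*.

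**Figure D3:**
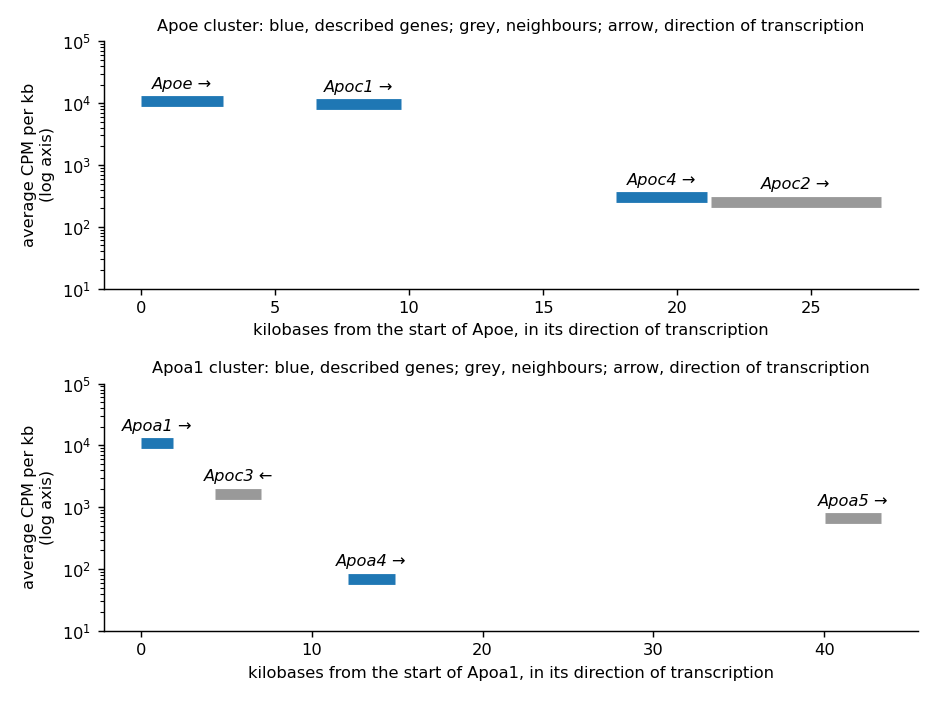
Average CPM per kilobase (log axis) of the genes of the *Apoe* cluster (top) and the *Apoa1* cluster (bottom), drawn at their distance in kilobases from the start of the first gene and as long as the gene. Blue lines are described genes, grey lines are neighbours and arrows give the direction of transcription, and *Apoe* (10662) and *Apoa1* (10760) are the highest in their clusters.

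The 10 genes also differed in gene structure. The apolipoprotein genes other than *Apob* had 3 or 4 exons in their longest coding transcript, against 6 for *Lcat*, 15 for *Pltp*, 20 for *Mttp* and 29 for *Apob*. The 4 genes of the high group had between 264 (*Apoc1*) and 933 (*Apoe*) coding bases. GC content of the longest coding transcript was lowest in *Apob* (43.5%) and highest in *Apoe* (59.5%). RefSeq start windows (250 bases before to 50 after a gene start, GRCm38.p6) were matched for 9 of the 10 genes, in 12 windows. The element AGGTCANAGGTCA, a direct repeat of the kind nuclear receptors such as PPARɑ bind, was searched on both strands. It matched 0 of the 12 windows, against 13 (0.0396%) of all 32851 windows. An exact match is so rare that 0 of 12 does not set these genes apart from others. Sites with other letters or outside the windows were not searched. The repeated part of the element, AGGTCA, was in windows of *Apoa2* and *Apoc4*, and 16.3% of all windows hold it. The letters TATAAA, searched in the same way, were in windows of *Apoa2*, *Apob*, *Apoe* and *Pltp*, and in 13.6% of all windows.

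Other genes of the pathway were detected too. Of 9 further apolipoprotein genes, 8 had an average log2 CPM of at least 0. They were *Apoh* (1515 CPM per kilobase), *Clu* (530.7), *Apof* (414.8), *Apom* (314.1) and *Apon* (128.5), beside *Apoc3*, *Apoa5* and *Apoc2* above. *Apod* had 0.1001 CPM, close to the value of 0.0728 that a gene without reads has in the table. The list's median was 521.8 CPM.

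A list of 12 genes for apoB particle assembly and export also held the editing genes *Apobec1* and *A1cf* and the sorting receptor *Sort1*. All 12 had an average log2 CPM of at least 0, with a median of 64.5 CPM. Per kilobase, *P4hb* was followed by *Cideb* (177.7), which acts in VLDL lipidation, and *Sar1b* (122.3), the GTPase of the secretory coat that large lipoproteins need. *Surf4*, a cargo receptor for lipoproteins, had 81.1 CPM per kilobase, and the export factors *Mia3* and *Mia2* had 45.5 and 2.25. *Pla2g12b* had 45.2, *Sar1a* 20.2 and *Tm6sf2* 10.1 CPM per kilobase, and both *Pla2g12b* and *Tm6sf2* are known to be needed for VLDL lipidation. *A1cf* (8.23), *Apobec1* (3.57) and the sorting receptor *Sort1* (1.67) were the other 3. By the union of exons *Mttp* itself, at 40.6, lay between *Pla2g12b* and *Sar1a*. By coding length *Mttp* had 92.3 CPM per kilobase. Other definitions of length were not applied to the listed genes, so its place among them holds for the union of exons only.

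Of 8 genes listed with HDL lipidation and remodelling, *Pon1*, *Pon3* and *Scarb1* among them, all passed the same limit, with a median of 104.9 CPM. *Pon1*, which encodes an HDL-bound esterase, was the highest with 274.8 CPM per kilobase, and *Lipc*, hepatic lipase, had 76.0. *Scarb1*, the HDL receptor, had 18.7 and *Bmp1*, a protease that matures apolipoprotein A-I, had 16.5. *Pon3* had 11.9 CPM per kilobase. The lipid exporters *Abca1* and *Abcg1* had 6.10 and 0.554 CPM per kilobase, and *Lipg*, endothelial lipase, had 4.66. By the union of exons *Lcat* was thus above all 8 of these genes, and *Pltp* lay between *Lipc* and *Scarb1*. Other definitions of length were not applied to the 8 genes, so these places hold for that length only.

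The RNA had the markers of liver, given here by read count. All 6 hepatocyte markers were in the top 1% of genes, from 1847 CPM for *Cps1* to *Alb* with 69579 CPM. Macrophages also make *Apoe*, *Apoc1* and *Pltp*, and 6 of 6 Kupffer cell markers had reads, between 4.08 and 82.0 CPM, with *Clec4f* the highest. Intestine also makes *Apob*, *Mttp*, *Apoa1* and *Apoa4*. Of its 6 markers *Cdx2*, *Alpi* and *Sis* had no reads, *Vil1* (0.347 CPM) and *Lct* (0.0954) were near the lowest value, and *Fabp2* had 86.2 CPM. All 5 stellate cell markers (2.47 to 99.7 CPM, *Dcn* the highest), 5 endothelial markers (10.8 to 44.3, *Stab2*) and 5 cholangiocyte markers (1.31 to 23.97, *Spp1*) had an average log2 CPM of at least 0. Of 4 adipocyte markers 1 did (*Cfd*, 1.70 CPM). The part of non-hepatocyte cells in the levels of the 10 genes was not tested, and in bulk tissue fewer cells of a type and less RNA per cell cannot be told apart.

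**Figure D4:**
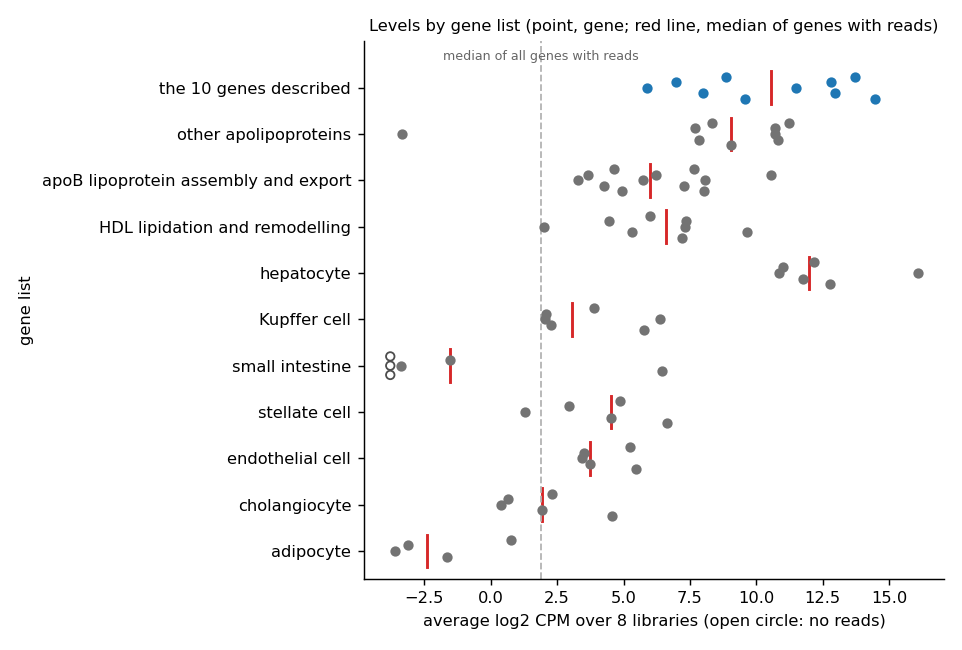
Average log2 CPM of every gene in each list (points; open circles, genes without reads), with the median of the genes with reads in red and the median of all genes with reads as a dashed line. By this measure of reads, not corrected for length, the 10 described genes (blue) have a median of 10.53, between the hepatocyte markers (11.97) and the other apolipoproteins (9.03).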

How the data were processed

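Poly-A RNA of 8 livers was measured, 4 wild-type and 4 V227A. According to the methods and the submitters' processing notes, reads were trimmed with Trimmomatic, checked with FastQC, aligned to GRCm38 (mm10) with STAR, counted with featureCounts and compared with edgeR by the authors. Versions, annotation, strand setting and low-count filter are not given in the sources used here. The average log2 CPM was computed by the authors over all libraries before it was deposited. The deposited table's fold change, F statistic, p-value and FDR hold the authors' own genotype comparison and were not used. It has 0 columns per library, so the planned edgeR test could not be run on counts. The 8242 genes at the lowest value were taken as genes without reads.

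CPM was 2 to the power of the deposited value. Length was the union of annotated exons (GENCODE vM21, matched by Ensembl ID for 91.0% of genes with reads). Effective library size was estimated from the lowest value. Of the 2378 genes with an estimated 1 to 5 reads in all, 99.9% had a total no more than 0.1 from a whole read. Genes named were the 10 members, all genes of the pathway lists, the 10 highest of the table by CPM and by CPM per kilobase, and the highest marker of each list. Named outside this rule, after their values were seen, were *Ppara*, *Ctsa*, *Cps1* and the intestine markers other than *Fabp2*, as well as the unmatched genes that overlap *Apoa4*. Members and lists were chosen with earlier results of these data known. No statistical test was made. Python 3.11.15, pandas 2.3.3, numpy 2.4.6, scipy 1.17.1 and matplotlib 3.10.9 were used.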

Additional observations from a re-analysis of the deposited data

How the results depend on the processing

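No paired analysis was possible because the table has no column per library. For the same reason no value could be recomputed without 1 of the mice. Dividing by the longest transcript kept 4 of the 10 genes at the same place in the order per kilobase, by coding length 5, and by exons not shared with another gene 8, against 10 by the union of exons. *Pltp*, the lowest gene, had 89.4% of genes below it among all genes with reads, 82.8% among genes with an average log2 CPM of at least 0, and 89.0% among genes with a symbol. The share of summed CPM held by the 10 genes, 5.57%, was 5.62% over genes with a symbol not beginning with mt-. That alternative leaves mitochondrial genes in, because the table names them without the prefix. Without the genes of the mitochondrial chromosome, an alternative chosen after seeing the data, it was 5.84%. Taking off the prior count moved the CPM of none of the 10 genes beyond its 95% binomial interval, which covers counting error only. A prior of 2 is small beside the 1624 or more estimated reads per library of these genes, so this check could hardly have come out otherwise. Levels averaged over both genotypes hide any difference between them, and no statement about V227A follows from them.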

Other observations

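Outside the lipoprotein genes, *Rn45s*, the ribosomal RNA precursor, had 15303 CPM, or 1.53% of the summed CPM, although the libraries were made from poly-A RNA. It has no length in the annotation used and was left out of the levels per kilobase. *Fabp2*, listed as a small intestine marker, had 86.2 CPM while *Cdx2*, *Alpi* and *Sis* had no reads. The paper places *Fabp2* in its set of PPARɑ target genes for acyl-CoA metabolism. Which cells its reads came from was not tested.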
